A study of Mus musculus with 18 samples.

Results

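The 10 genes described here, Cdkn1a, Plk2, Zmat3, Mdm2, Ccng1, Bbc3, Bax, Eda2r, Phlda3 and Trp53inp1, are established transcriptional targets of the tumour suppressor p53. They were picked by symbol from the 55335 genes of the count table. Each symbol had a single row, and all 10 were among the 21349 genes left for testing after edgeR's filter on low counts. RNA-Seq libraries were made from purified small intestinal crypts, the epithelial pockets that hold the stem and progenitor cells, of 3 KO and 3 WT mice collected 2, 7 or 14 days after tamoxifen was first injected, which gave 18 libraries in 6 groups. All mice carried Prmt1 fl/fl, in which LoxP sites flank part of both copies of the gene for the arginine methyltransferase PRMT1, and were 8 to 12 weeks old. KO mice also carried Vil-CreERT2, a tamoxifen-activated Cre recombinase under the villin promoter, which is active in the intestinal epithelium. WT mice were littermates without Cre, so the loss of Prmt1 and the activity of Cre cannot be told apart in these groups. Every KO and WT mouse received tamoxifen at 2 mg per injection, with 2 injections before day 2 and 5 before days 7 and 14, so time and dose changed together between day 2 and the later days.

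p53 is a transcription factor that cells stabilise after DNA damage, nucleolar stress and other insults. Its targets stop the cell cycle, repair damage, trigger death through the mitochondria, or act back on p53 itself, as Mdm2 does by marking p53 for degradation. In the small intestinal crypt the p53 response is best known from irradiation, where Bbc3 promotes the death of stem and progenitor cells and Cdkn1a restrains their division. The 10 genes were grouped by role into arrest and growth control (Cdkn1a, Plk2 and Zmat3), feedback on p53 (Mdm2 and Ccng1), and death and survival signalling (Bbc3, Bax, Eda2r, Phlda3 and Trp53inp1).

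p53 binds DNA through pairs of a short palindromic consensus, the p53 half-site, so the bases upstream of the members' start sites are shown for the 4 genes in which an exact match was found and for Phlda3, the gene with the largest KO effect, in which it was not. The windows hold the 250 bases before a RefSeq start site (GRCm38.p6, the assembly of mm10), are written 5′ to 3′ on the gene's strand, and have exact p53 half-sites in capitals. The consensus is its own reverse complement, so a single search covers both strands.
Cdkn1a, chr17:29090729-29090978, plus strand: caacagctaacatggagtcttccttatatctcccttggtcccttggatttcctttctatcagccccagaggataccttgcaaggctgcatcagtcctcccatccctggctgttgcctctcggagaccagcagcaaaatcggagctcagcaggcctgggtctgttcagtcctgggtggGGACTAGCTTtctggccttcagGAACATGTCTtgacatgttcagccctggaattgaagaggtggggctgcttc
Mdm2, chr10:117710759-117711008, minus strand: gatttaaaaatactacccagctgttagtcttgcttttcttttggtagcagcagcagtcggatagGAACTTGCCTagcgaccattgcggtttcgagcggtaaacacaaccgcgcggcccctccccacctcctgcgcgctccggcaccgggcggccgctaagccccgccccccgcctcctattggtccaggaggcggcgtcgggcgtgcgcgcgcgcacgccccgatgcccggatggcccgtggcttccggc
Ccng1, chr11:40755287-40755536, minus strand: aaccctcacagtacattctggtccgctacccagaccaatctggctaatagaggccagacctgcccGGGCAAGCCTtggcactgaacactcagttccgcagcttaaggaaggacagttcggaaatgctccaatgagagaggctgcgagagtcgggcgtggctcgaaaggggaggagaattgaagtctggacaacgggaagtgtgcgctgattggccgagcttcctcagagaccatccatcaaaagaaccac
Bax, chr7:45466899-45467148, minus strand: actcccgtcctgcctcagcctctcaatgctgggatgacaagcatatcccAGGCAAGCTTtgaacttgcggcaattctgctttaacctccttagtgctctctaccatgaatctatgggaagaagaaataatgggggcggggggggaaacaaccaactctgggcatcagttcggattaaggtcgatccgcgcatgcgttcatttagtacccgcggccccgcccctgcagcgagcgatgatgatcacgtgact
Phlda3, chr1:135765835-135766084, plus strand: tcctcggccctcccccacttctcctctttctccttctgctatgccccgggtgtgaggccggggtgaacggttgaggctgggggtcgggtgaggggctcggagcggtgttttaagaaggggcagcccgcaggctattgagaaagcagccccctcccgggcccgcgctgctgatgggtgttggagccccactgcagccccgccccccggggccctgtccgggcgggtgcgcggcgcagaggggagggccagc

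Of the 10 members, 8 had RefSeq windows, 11 windows in all, and Trp53inp1 and Zmat3 had none in the table. The Cdkn1a window shown held 2 exact half-sites, GGACTAGCTT and GAACATGTCT, which start 73 and 51 bases before the start site and are 12 bases apart. The bases tgacatgttc, which follow GAACATGTCT directly, differ from the consensus only at their first base and are not in capitals. Mdm2 held GAACTTGCCT, Ccng1 held GGGCAAGCCT and Bax held AGGCAAGCTT, which start 186, 185 and 201 bases before their start sites. At least 1 exact half-site was present in 4 of the 8 genes with a window, against 2216 of the 27025 genes in the whole table (8.20%). A pair of half-sites with at most 2 mismatches and at most 13 bases between them was present in 2 of the 8, Cdkn1a and Bax, against 556 of 27025 genes (2.06%). None was found in the windows of Phlda3, Plk2, Eda2r and Bbc3, or in the second window of Cdkn1a (chr17:29093519-29093768). These matches describe the letters in a short window only, and no binding was measured.

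The 10 genes were higher in KO than in WT crypts mainly at day 7, with a smaller set of differences at day 2 and none called at day 14. At day 7, 9 of the 10 rose (adjusted p under 0.05, quasi-likelihood test of edgeR, P values adjusted over all tested genes by the Benjamini-Hochberg method), against 7.11% of all tested genes called higher on that day. Their log2 fold changes, KO against WT, ranged from 0.20 for Trp53inp1, the gene that was not called, to 2.07 for Phlda3, with a median of 0.74. At day 2 only Phlda3 was called, with a background of 0.0281% of genes called higher, and at day 14 no member was called by edgeR or by DESeq2's Wald test, with 3.23% of genes called higher and 4.69% lower. The day 14 difference had an unadjusted p under 0.05 for 1 member, Plk2 (unadjusted p = 0.0186, adjusted p = 0.129, quasi-likelihood test of edgeR), against 9.80% of genes in that direction. In crypts measured in bulk, more RNA per cell and more cells of a type that expresses a gene cannot be told apart.

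**Figure D1:**
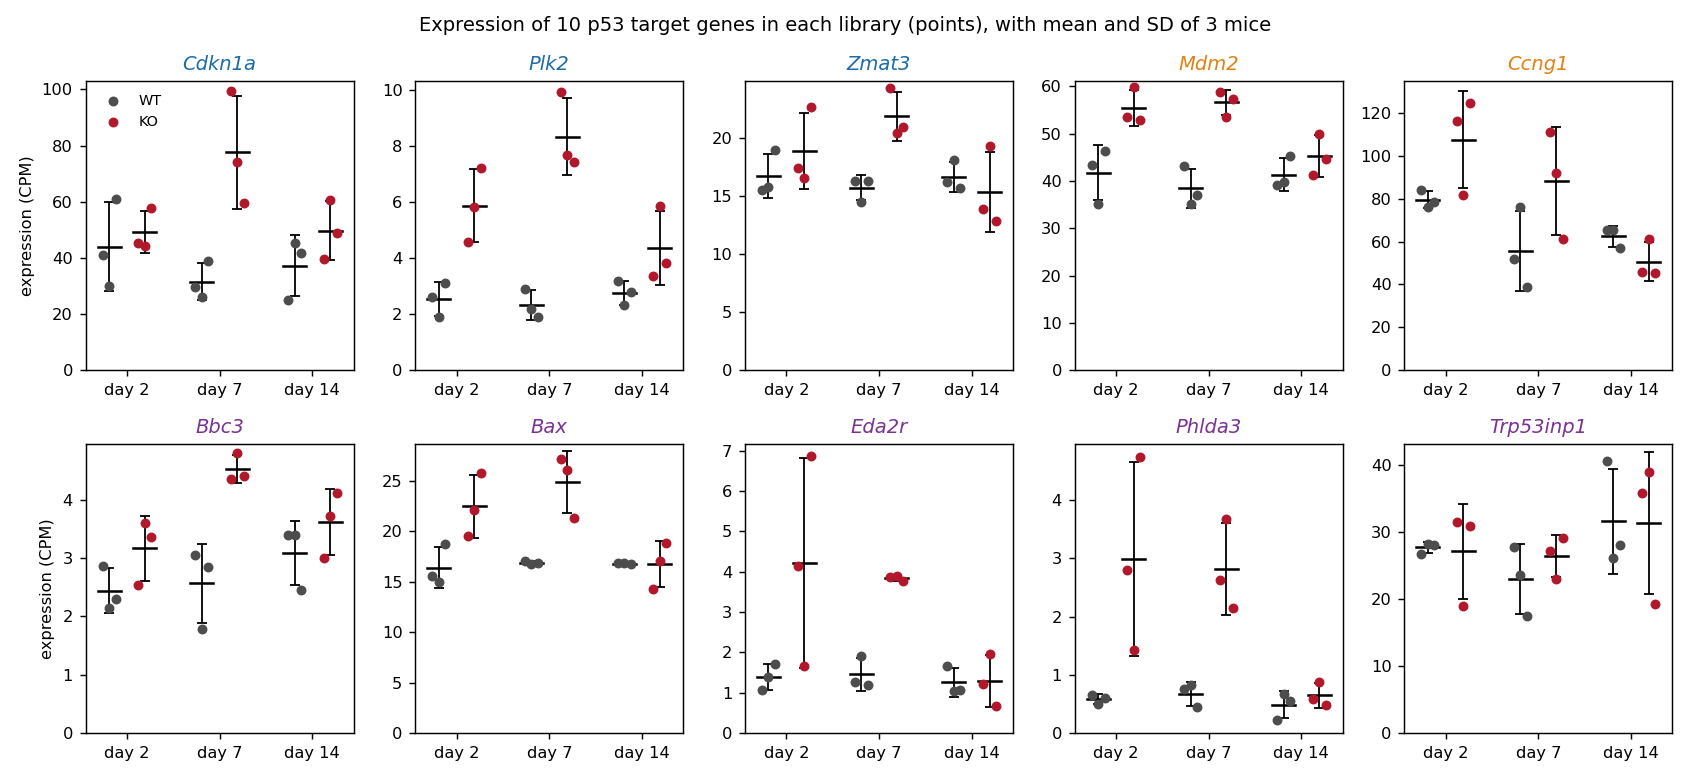
Expression of each member in CPM (counts relative to library size after TMM normalization, y axis from 0, a separate scale for each gene) at days 2, 7 and 14; points are the libraries, grey for WT and red for KO, and bars give the mean and SD of 3 mice. At day 7 the 3 KO libraries lie above the 3 WT libraries for 8 of the 10 genes, all but Ccng1 and Trp53inp1, and at day 14 for Plk2 alone. Of all tested genes, 15.9% were separate and higher at day 7 and 12.4% at day 14.

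Libraries held 12844642 to 31493484 counts in total, and the normalization factors lay close to 1 (0.857 to 1.13). Levels are CPM after TMM normalization in edgeR, and a log2 fold change of 1 is a change of 2 times. Prmt1, the deleted gene, was lower in KO crypts on each day, by log2 fold changes of -0.89, -0.59 and -0.72 at days 2, 7 and 14 (adjusted p = 0.0264, 0.00675 and 0.00329, quasi-likelihood test of edgeR). The day 2 adjusted p was 0.0816 to 0.183 when any 1 of the 6 libraries was left out, and at day 7 it reached 0.0655 without KO replicate 1. With the replicate number as a block the day 2 adjusted p was 0.0531, and in a model of the day 2 libraries alone 0.0939. The genes of the crypt epithelium list were detected in every group. This list holds general epithelial markers such as Epcam, Vil1 and Cdh1 beside the stem cell markers Lgr5 and Olfm4, so its detection does not set crypt apart from villus cells. Enterocyte markers had the higher median sum in every group, for example 23330 against 9054 CPM in KO at day 2. None of the 64 markers in 7 cell type lists was at 0 in all libraries of a group. Marker genes called at days 7 and 14 are given beside the results for those days.

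In WT crypts the members differed widely in level. Compared per kilobase of exon, the order of the means over the 9 WT libraries was Ccng1 (18.7 ± 4.15 CPM per kb, SD), Bax (10.6 ± 0.661), Cdkn1a (10.6 ± 3.24), Mdm2 (7.97 ± 0.839), Trp53inp1 (4.23 ± 0.933), Zmat3 (1.43 ± 0.119), Bbc3 (1.27 ± 0.264), Plk2 (0.567 ± 0.110), Phlda3 (0.372 ± 0.116) and Eda2r (0.231 ± 0.0553). The ranges over libraries did not overlap between Mdm2 and Trp53inp1, between Trp53inp1 and Zmat3, or between Bbc3 and Plk2, and the ranges of all other neighbours in this order overlapped. The 3 genes with the lowest WT level per length, Plk2, Phlda3 and Eda2r, were also the 3 with the largest day 7 log2 fold changes. Phlda3 rested on 3 to 110 counts per library, Eda2r on 10 to 159, Bbc3 on 28 to 137 and Plk2 on 34 to 223, whereas the other members had at least 190 in every library.

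Among the arrest and growth genes, Cdkn1a (ENSMUSG00000023067.14, chromosome 17, 29090976 to 29100727, plus strand) encodes p21, the inhibitor of cyclin-dependent kinases that carries out p53-dependent cell cycle arrest. Its day 2 level was 45.5, 44.1 and 57.8 CPM in the 3 KO libraries and 41.1, 29.9 and 61.1 CPM in the 3 WT libraries. For day 7 the values were 99.3, 74.3 and 59.4 CPM for KO and 29.7, 26.0 and 38.7 CPM for WT. The day 14 values were 39.7, 60.5 and 48.8 in KO and 24.9, 45.3 and 41.7 CPM in WT. The groups were separate at day 7 only, when the lowest KO library lay well above the highest WT library. Fitted as KO against WT, Cdkn1a had a log2 fold change of 0.16 at day 2 (95% confidence interval -0.41 to 0.72), 1.30 at day 7 (SE 0.27, 2.46-fold, adjusted p = 0.00323, quasi-likelihood test of edgeR) and 0.41 at day 14 (-0.16 to 0.97). Cdkn1a was called at day 7 whichever library was left out. It shares 273 exon bases, 7.70% of its exons, with the antisense gene 1700023B13Rik, and strand was not used in the counting, so a small part of its count cannot be assigned with certainty.

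Plk2 (ENSMUSG00000021701.8, chromosome 13, 110395046 to 110400844, plus strand), a polo-like kinase that acts in centriole duplication and is induced by stress, had a large log2 fold change already at day 2. It stood at 4.59, 5.82 and 7.21 in KO and 2.62, 1.91 and 3.12 CPM in WT libraries at day 2. The values were 9.92, 7.69 and 7.42 in KO against 2.91, 2.17 and 1.88 CPM in WT at day 7, and 3.37, 5.87 and 3.85 in KO against 3.17, 2.33 and 2.78 CPM in WT at day 14. All KO libraries lay above all WT libraries on each of the 3 days, and Plk2 was the only member of which this was true. At day 14, when it was the only member separate, 12.4% of all tested genes were separate and higher in the same way. In the fit Plk2 had log2 fold changes of 1.20 at day 2 (SE 0.25, adjusted p = 0.23), 1.83 at day 7 (SE 0.25, adjusted p = 6.78e-05, quasi-likelihood test of edgeR) and 0.67 at day 14 (SE 0.26, adjusted p = 0.129). The day 7 difference of 3.56-fold had the lowest adjusted p of the 10 members, and it was called in every setting and with any library left out. The day 2 difference was called with DESeq2's Wald test and without a filter on low counts (lowest adjusted p = 0.00639).

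Zmat3 (ENSMUSG00000027663.12, chromosome 3, 32334792 to 32366014, minus strand), a zinc finger protein that binds RNA and regulates splicing and mRNA stability, differed less. Its KO libraries had 24.2, 20.4 and 20.9 CPM at day 7 and its WT libraries 16.3, 14.4 and 16.3 CPM, with no overlap. At day 2 the values were 17.4, 16.6 and 22.6 in KO and 15.5, 15.8 and 18.9 CPM in WT, and at day 14 they were 13.9, 19.2 and 12.8 in KO and 16.2, 18.1 and 15.7 CPM in WT. The groups overlapped on both of those days. Zmat3 had a fitted log2 fold change of 0.48 at day 7 (SE 0.16, adjusted p = 0.0414, quasi-likelihood test of edgeR), 0.18 at day 2 (95% confidence interval -0.15 to 0.50) and -0.12 at day 14 (-0.45 to 0.21). The day 7 call is not firm. It was kept only without KO replicate 3 (adjusted p = 0.0341) and lost when any other day 7 library was left out, with adjusted p from 0.06 without KO replicate 2 to 0.14 without KO replicate 1, and it was also lost with no filter on low counts (0.0612) and with the replicate number as a block (0.0564).

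The feedback genes had day 7 log2 fold changes of 0.56 and 0.67. Mdm2 (ENSMUSG00000020184.15, chromosome 10, 117688875 to 117710758, minus strand), the ubiquitin ligase that removes p53, had 53.5, 59.9 and 52.9 in KO and 43.5, 35.2 and 46.4 CPM in WT libraries at day 2. At day 7 it had 58.8, 53.6 and 57.4 in KO and 43.1, 35.1 and 37.0 CPM in WT. The KO libraries lay above the WT libraries without overlap on both days. At day 14 the values were 41.2, 49.96 and 44.7 in KO and 39.1, 39.7 and 45.3 CPM in WT, and the groups overlapped. For Mdm2 the fit gave a log2 fold change of 0.41 at day 2 (SE 0.12, unadjusted p = 0.00341, adjusted p = 0.999), 0.56 at day 7 (SE 0.12, 1.47-fold, adjusted p = 0.0038, quasi-likelihood test of edgeR) and 0.13 at day 14 (95% confidence interval -0.13 to 0.39). The day 7 call of Mdm2 held in every setting and with any library left out.

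Ccng1 (ENSMUSG00000020326.7, chromosome 11, 40748552 to 40755311, minus strand) encodes cyclin G1, which binds the phosphatase PP2A and acts on Mdm2. It had the highest WT level per length of the 10 genes. The day 2 values were 116, 81.9 and 125 in KO and 83.9, 76.1 and 78.5 CPM in WT. At day 7 they were 111, 91.9 and 61.4 in KO and 51.7, 75.9 and 38.9 CPM in WT, and at day 14 they were 45.8, 61.3 and 45.1 in KO and 65.3, 65.3 and 56.9 CPM in WT. The groups overlapped on all 3 days, and at day 14 the KO mean was the lower of the 2. Ccng1 had log2 fold changes of 0.44 at day 2 (SE 0.22, adjusted p = 0.999), 0.67 at day 7 (SE 0.23, adjusted p = 0.0471, quasi-likelihood test of edgeR) and -0.30 at day 14 (SE 0.23, adjusted p = 0.491). The day 7 call was lost without KO replicate 1 (0.49, adjusted p = 0.229), KO replicate 2 (0.64, 0.113), WT replicate 1 (0.62, 0.142) or WT replicate 3 (0.47, 0.203), with the 20 most abundant genes left out (adjusted p = 0.0538) and in a model of the day 7 libraries alone (0.121).

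Of the death genes, Bbc3 (ENSMUSG00000002083.13, chromosome 7, 16308393 to 16318205, plus strand) encodes PUMA, a BH3-only protein that sets off mitochondrial apoptosis. At day 2 it had 2.53, 3.59 and 3.37 in KO and 2.87, 2.14 and 2.30 CPM in WT libraries. At day 7 the KO libraries had 4.36, 4.81 and 4.41 CPM and the WT libraries 3.06, 1.79 and 2.85 CPM. By day 14 they had 3.00, 3.72 and 4.12 in KO and 3.40, 3.40 and 2.46 CPM in WT. Only the day 7 groups were separate. As a log2 fold change, Bbc3 differed by 0.38 at day 2 (95% confidence interval -0.10 to 0.86), 0.80 at day 7 (SE 0.23, adjusted p = 0.0185, quasi-likelihood test of edgeR) and 0.23 at day 14 (-0.25 to 0.71). The day 7 call was lost without KO replicate 2 (0.75, adjusted p = 0.0614) or WT replicate 2 (0.62, 0.0898), and in a model of the day 7 libraries alone (0.0506).

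Bax (ENSMUSG00000003873.11, chromosome 7, 45461697 to 45466898, minus strand), which forms the pore in the outer mitochondrial membrane, varied least relative to its mean in WT crypts, at 14.95 to 18.7 CPM over 9 libraries. Its KO libraries had 19.6, 22.1 and 25.8 CPM at day 2 and 27.2, 26.1 and 21.4 CPM at day 7. The WT libraries had 15.5, 14.95 and 18.7 CPM at day 2 and 17.02, 16.7 and 16.9 CPM at day 7. On both days the KO libraries lay above the WT libraries. At day 14 the KO libraries, with 14.3, 17.1 and 18.8 CPM, spread to both sides of the WT libraries, with 16.9, 16.8 and 16.7 CPM. Bax differed by a log2 fold change of 0.46 at day 2 (SE 0.14, unadjusted p = 0.00343, adjusted p = 0.999), 0.56 at day 7 (SE 0.14, adjusted p = 0.00774, quasi-likelihood test of edgeR) and -0.01 at day 14 (95% confidence interval -0.30 to 0.28). Bax was called at day 7 in every setting and with any library left out. It shares 192 exon bases, 12.2% of its exons, with Gm45808 on the same strand, and fragments there were counted for both genes.

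Phlda3 (ENSMUSG00000041801.5, chromosome 1, 135766119 to 135769136, plus strand) encodes a pleckstrin homology domain protein that competes with the survival kinase Akt for membrane lipids. At day 2 it had 2.80, 1.43 and 4.75 in KO and 0.656, 0.489 and 0.594 CPM in WT libraries. At day 7 it had 2.62, 3.69 and 2.14 in KO and 0.756, 0.831 and 0.438 CPM in WT. All KO libraries lay above all WT libraries on both days. By day 14 the groups overlapped, with 0.580, 0.883 and 0.472 in KO and 0.227, 0.671 and 0.556 CPM in WT. On the log2 scale the difference of Phlda3 was 2.37 at day 2 (SE 0.41, 5.16-fold, adjusted p = 0.0401), 2.07 at day 7 (SE 0.40, 4.21-fold, adjusted p = 0.0015, quasi-likelihood test of edgeR) and 0.32 at day 14 (95% confidence interval -0.70 to 1.35). The 3 day 2 KO libraries differed among themselves, and the day 2 log2 fold change was 1.84 without KO replicate 3 (adjusted p = 0.338) and 2.7 without KO replicate 2 (0.00495). The day 2 call was also lost without KO replicate 1 or without any WT library (adjusted p from 0.161 to 0.332), with the replicate number as a block (0.113), and in a model of the day 2 libraries alone (0.281), whereas the day 7 call was kept in all 6 fits that left out a day 7 library (0.00118 to 0.0126).

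Eda2r (ENSMUSG00000034457.10, chromosome X, 97333840 to 97377216, minus strand), the tumour necrosis factor receptor family member that binds ectodysplasin A2, had a time course like that of Phlda3. In the day 2 KO libraries it had 4.13, 1.66 and 6.86 CPM, and in the WT libraries 1.07, 1.38 and 1.71 CPM. KO replicate 2 lay within the WT range, and the other 2 KO libraries above it. The day 7 KO libraries were nearly equal, at 3.87, 3.90 and 3.76 CPM, and all above the WT libraries, at 1.26, 1.92 and 1.18 CPM. At day 14 the KO values of 1.21, 1.96 and 0.675 CPM enclosed the WT values of 1.66, 1.03 and 1.07 CPM. The fitted difference of Eda2r on the log2 scale was 1.61 at day 2 (SE 0.39, unadjusted p = 0.000616, adjusted p = 0.692), 1.42 at day 7 (SE 0.40, adjusted p = 0.0175, quasi-likelihood test of edgeR) and 0.08 at day 14 (95% confidence interval -0.86 to 1.01). The day 7 call was lost without WT replicate 1 (1.33, adjusted p = 0.0735) or WT replicate 3 (1.30, 0.0742). Without KO replicate 2 the day 2 log2 fold change was 1.99 (adjusted p = 0.0533), and without KO replicate 3 it was 1.04 (0.998). With no filter on low counts Eda2r was called at day 2 (adjusted p = 0.0036).

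Trp53inp1 (ENSMUSG00000028211.11, chromosome 4, 11156431 to 11174379, plus strand), a stress protein that acts with p53 in the nucleus and takes part in autophagy, was called on no day. It had 31.5, 18.9 and 30.9 in KO and 26.7, 28.3 and 28.0 CPM in WT at day 2, 27.1, 23.02 and 29.1 in KO and 27.8, 23.6 and 17.4 CPM in WT at day 7, and 35.8, 38.9 and 19.3 in KO and 40.6, 26.1 and 28.1 CPM in WT at day 14. The groups overlapped on each day. At day 7 the log2 fold change was 0.20 with a 95% confidence interval of -0.31 to 0.72, which includes the values of Mdm2, Bax, Ccng1 and Zmat3. The counts behind it, 286 to 772 per library, were as high as those of genes that were called.

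**Figure D2:**
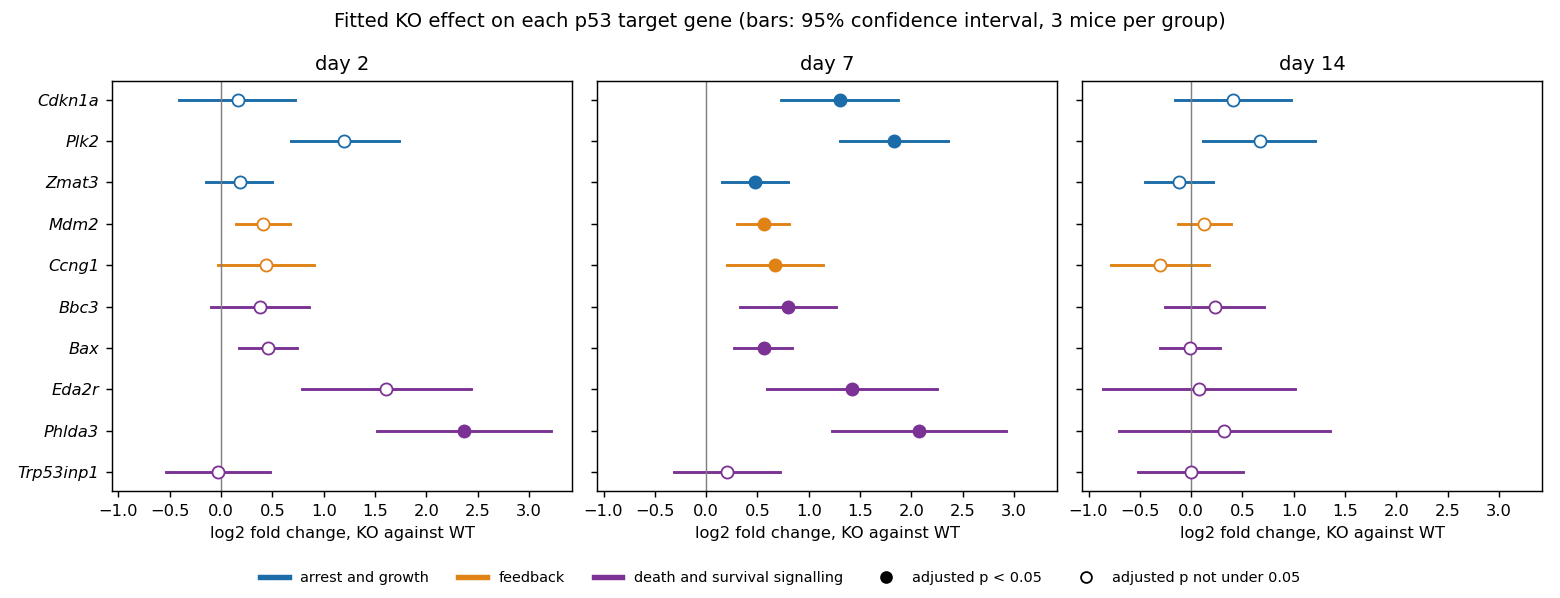
Log2 fold change of KO against WT for each member (x axis) at days 2, 7 and 14, with 95% confidence intervals from the fit of 3 mice per group; colours mark the role and filled points an adjusted p under 0.05. 1 filled point, Phlda3, is seen at day 2, 9 at day 7 and none at day 14.

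By role, all 3 arrest and growth genes, both feedback genes and 4 of the 5 death and survival signalling genes were called at day 7, with median log2 fold changes of 1.30, 0.61 and 0.80. At day 2 the medians were 0.18, 0.42 and 0.46, and at day 14 they were 0.41, -0.09 and 0.08. These are medians of 3, 2 and 5 genes and were not tested against each other. The median log2 fold change over all tested genes was -0.005 at day 2, 0.016 at day 7 and 0.002 at day 14. The day 7 log2 fold changes ran from 0.48 (Zmat3) to 1.83 (Plk2) among the arrest and growth genes and from 0.20 (Trp53inp1) to 2.07 (Phlda3) among the death and survival genes.

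At day 2, 5 of the 10 members had an unadjusted p under 0.05, all with higher levels in KO, against 1.96% of tested genes in that direction. They were Phlda3, Plk2, Eda2r, Mdm2 and Bax. The KO libraries lay above the WT libraries without overlap for 4 of them, all but Eda2r, against 4.30% of tested genes. The share of counts from mitochondrial genes also differed at day 2, at 6.84% to 9.76% in the KO libraries and 10.13% to 10.58% in the WT libraries, and its part in these differences was not tested. Of the 9 members with a positive log2 fold change, only Phlda3 had an adjusted p under 0.05, in a comparison in which the quasi-likelihood test of edgeR called 7 genes in all. By day 7 the KO libraries were separate and higher for 8 members, against 15.9% of tested genes, so that differences of this kind were common on that day and the members' share was larger.

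Cell type markers moved with genotype at day 7. The summed level of 10 enteroendocrine markers was 656.5 to 813.9 in KO and 293.5 to 316.0 CPM in WT libraries, and all 10 were called higher. All 7 Paneth markers were called lower, with a summed level of 1410 to 3971 in KO and 8993 to 14970 CPM in WT. Of the crypt epithelium list, Lgr5 and Olfm4, which mark stem cells, were called lower (log2 fold change -1.59 and -1.30, adjusted p = 0.00131 and 0.00365, quasi-likelihood test of edgeR). Enterocyte markers rose for Fabp1 and Fabp2 and fell for Lct, goblet markers fell for Clca1 and Fcgbp, stromal markers rose for Vim and Pecam1, and 0 of 10 immune markers were called by edgeR or DESeq2 (0 with an unadjusted p under 0.05), with summed levels of 53.5 to 122 in KO and 56.5 to 121 CPM in WT. Several of these calls rest on single libraries. With a day 7 library left out, no enterocyte marker was called lower in any of the 6 fits and none higher without KO replicate 1, WT replicate 1 or WT replicate 3, only 1 goblet marker was called lower in each fit, 1 stromal marker was called without KO replicate 3 or any WT library, and 2 immune markers were called higher without WT replicate 1. The enteroendocrine count stayed at 9 or 10 and the Paneth count at 6 or 7. The part of these markers in the day 7 result was not tested. At day 2, when Phlda3 was called, 0 genes of the 7 marker lists were called by edgeR or DESeq2 (2 with an unadjusted p under 0.05). KO libraries lay above WT libraries without overlap for 4 of 7 goblet markers, against 4.30% of tested genes, with a list median of 0.31. Goblet markers summed to 14110 to 16170 in KO and 11740 to 14360 CPM in WT, and stromal markers to 28.8 to 126 in KO and 68.2 to 173 CPM in WT. In the lists of 10, 1 immune marker was separate and higher, and 1 crypt and 1 enteroendocrine gene were separate and lower. The Paneth median was 0.41, with no gene separate. The part of these markers in the day 2 result was not tested.

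The KO effect was smaller at day 14 than at day 7 for all 10 members. The change of the log2 fold change, day 14 minus day 7, ranged from -1.75 for Phlda3 to -0.21 for Trp53inp1, with a median of -0.75. It had an unadjusted p under 0.05 for 8 members (all but Bbc3 and Trp53inp1), against 1.93% of tested genes in that direction. After adjustment no gene was called in this comparison (0.0% of tested genes), and the adjusted p of every member was 0.999 in the quasi-likelihood test of edgeR. DESeq2's Wald test called 2 genes, neither of them a member. The smallest unadjusted p were those of Plk2 (-1.16, SE 0.36, unadjusted p = 0.00454, adjusted p = 0.999), Ccng1 (-0.97, SE 0.32, unadjusted p = 0.00689) and Bax (-0.57, SE 0.19, unadjusted p = 0.00887, all from the quasi-likelihood test of edgeR).

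**Figure D3:**
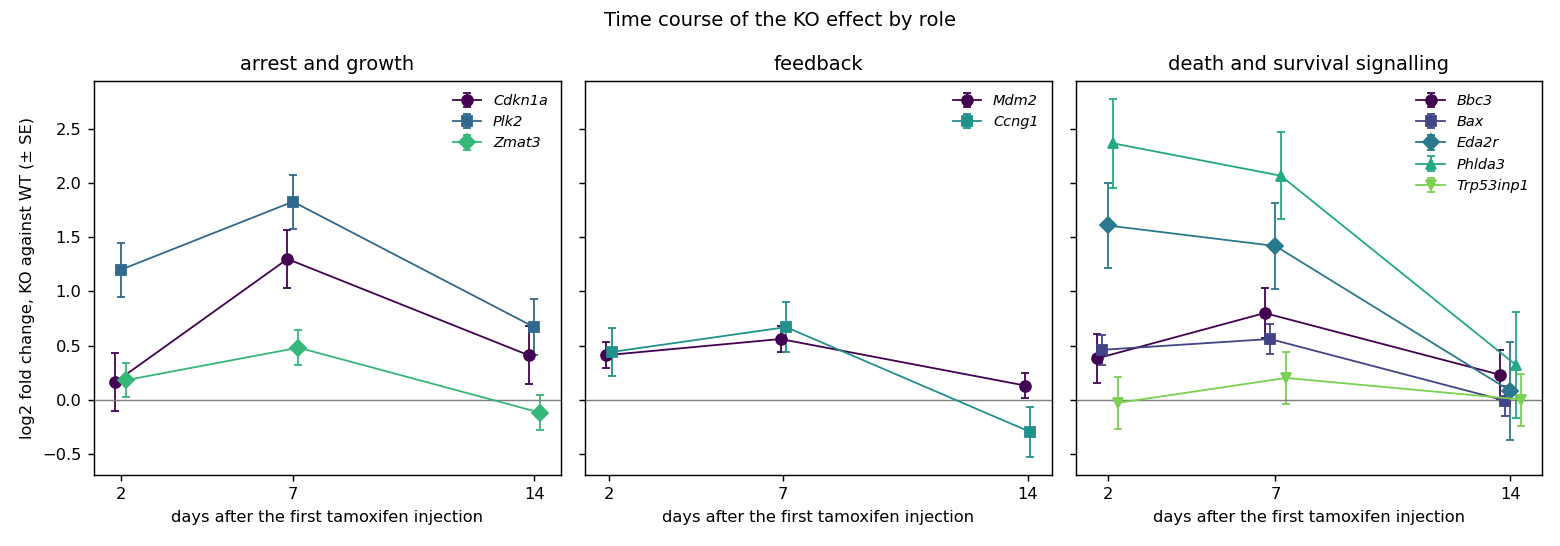
Log2 fold change of KO against WT (y axis, ± SE) at 2, 7 and 14 days after the first tamoxifen injection, with a panel for each role. Phlda3 and Eda2r are at their highest at day 2, the other 8 genes at day 7, and at day 14 the values lie between -0.30 and 0.67.

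The day 2 values are given here as a share of the day 7 values, as a description, since members were not tested against each other. Cdkn1a had 12.1% of its day 7 log2 fold change at day 2, Zmat3 37.1%, Bbc3 47.6%, Ccng1 65.2%, Plk2 65.7%, Mdm2 73.5% and Bax 81.6%. Eda2r and Phlda3 were at 113% and 114%, but without KO day 2 replicate 3 their day 2 log2 fold changes of 1.04 and 1.84 lay below those of day 7 (1.42 and 2.07). With a library left out, the day 2 log2 fold change ran from -0.06 to 0.46 for Cdkn1a, from 0.02 to 0.27 for Zmat3 and from 0.29 to 0.51 for Bbc3, so these shares are loose. The increase of the KO effect from day 2 to day 7 had an unadjusted p under 0.05 for Cdkn1a alone (1.14, SE 0.38, unadjusted p = 0.00782, adjusted p = 0.103, quasi-likelihood test of edgeR), in a comparison in which 7.60% of tested genes had such a p with a positive change, and 1.33% were called higher and 3.04% lower. DESeq2's Wald test called it, among 515 genes higher and 887 lower, as did the fit without WT day 2 replicate 2, among 338 higher and 473 lower. That library had the lowest day 2 Cdkn1a level. For the other 9 members the confidence intervals of this change included 0, from -0.22 to 0.51 for Mdm2 and from -1.50 to 0.91 for Phlda3.

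Levels within the KO groups were also compared between days. From day 7 to day 14 the KO libraries of 8 members moved to lower values without overlap, against 6.21% of tested genes, the exceptions being Cdkn1a and Trp53inp1. None of the 10 passed the adjusted threshold (0.0281% of genes called lower, 0.0187% higher), with Phlda3 closest (-2.12, SE 0.42, adjusted p = 0.0628, quasi-likelihood test of edgeR), although 8 had an unadjusted p under 0.05, against 3.67% of genes in that direction. DESeq2's Wald test called Phlda3, Bax, Plk2 and Eda2r among 66 genes lower and 156 higher, and without KO day 7 replicate 3 edgeR called Phlda3, Bax and Ccng1 among 45 genes lower and 74 higher. Between days 2 and 14, 3 members fell in KO crypts, against 5.75% of tested genes called lower. They were Phlda3 (-2.22, SE 0.42, adjusted p = 0.00221), Ccng1 (-1.09, SE 0.23, adjusted p = 0.00486) and Eda2r (-1.72, SE 0.41, adjusted p = 0.011, quasi-likelihood test of edgeR). The Eda2r call was lost without KO day 2 replicate 3 (-1.15, adjusted p = 0.103), KO day 14 replicate 1 (-1.67, 0.0542) or KO day 14 replicate 3 (-1.42, 0.0638), and in a model of the groups compared alone (-1.69, 0.0731). From day 2 to day 7 no member was called in KO (7.21% of genes called higher, 8.80% lower), with an unadjusted p under 0.05 for Cdkn1a and Bbc3, both higher, against 14.4% of genes, and no call by DESeq2's Wald test.

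In WT crypts no member was called between any pair of days by the quasi-likelihood test of edgeR or DESeq2's Wald test. The share of tested genes called by edgeR was 0.553% between days 2 and 7, 0.0796% between days 7 and 14 and 1.61% between days 2 and 14, and DESeq2's Wald test called 678 genes higher and 833 lower at day 7 than at day 2, 26 and 23 at day 14 than at day 7, and 629 and 754 at day 14 than at day 2. An unadjusted p under 0.05 was found for 1 member between days 2 and 7 (22.4% of genes) and for none between days 7 and 14 (5.18%) or between days 2 and 14 (4271 of 21349 genes). Log2 differences of the WT groups lay between -0.52 and 0.46.

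**Figure D4:**
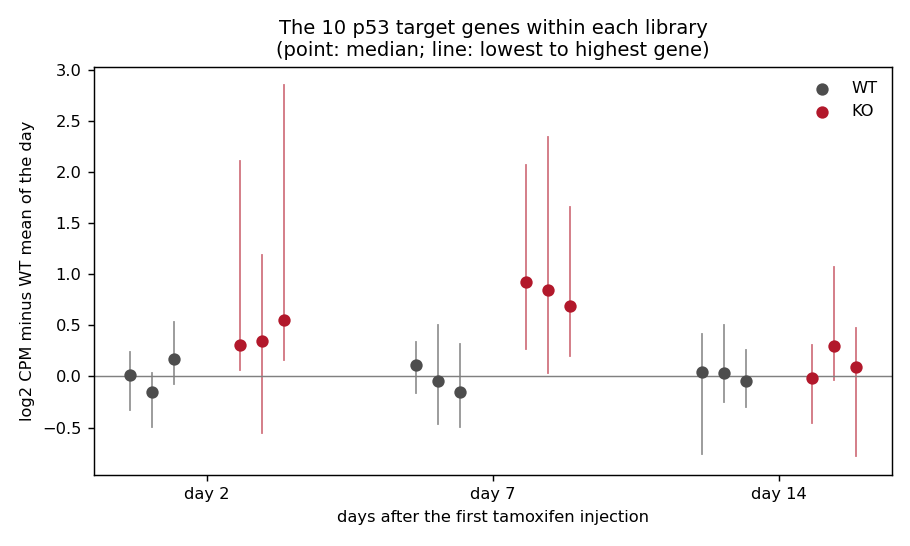
Log2 CPM of the members in each library minus the WT mean of the same day (y axis) for days 2, 7 and 14; the point is the median of the 10 genes and the line runs from the lowest to the highest gene, grey for WT and red for KO. The KO medians are 0.31 to 0.55 at day 2, 0.69 to 0.92 at day 7 and -0.01 to 0.30 at day 14, and the WT medians lie between -0.15 and 0.17.

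Seen library by library, the median of the 10 genes above the WT mean of the day was 0.31, 0.35 and 0.55 (log2 CPM) in the day 2 KO libraries, 0.92, 0.85 and 0.69 at day 7 and -0.01, 0.30 and 0.09 at day 14. In each day 7 KO library all 10 members lay above the WT mean. At day 2, KO replicate 3 held the highest value of its group for 7 members and replicate 2 the lowest for 6, and replicate 2 had 8 members above the WT mean. At day 14, KO replicate 2 held the highest value for 8 of the 10 members. In WT at day 2, replicate 2 held the lowest value for 7 members and replicate 3 the highest for 6.

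Genes upstream of the members in the p53 pathway were also measured. Trp53, the gene of p53 itself, had 30.7 ± 4.59 CPM in KO libraries and 31.6 ± 1.69 CPM in WT libraries at day 2 (mean ± SD, n = 3), 30.1 ± 2.08 and 30.5 ± 1.12 CPM at day 7, and 36.2 ± 1.85 and 36.3 ± 4.48 CPM at day 14. Its log2 fold change at day 7 was -0.02 with a 95% confidence interval of -0.27 to 0.23. Mdm4, the partner of Mdm2 in restraining p53, had a day 7 log2 fold change of -0.08 (-0.47 to 0.30). Of 14 p53 regulators 13 were tested, and at day 7 Chek1, a checkpoint kinase (0.62, SE 0.17, adjusted p = 0.0138, quasi-likelihood test of edgeR), rose and Atr, the kinase that activates it (-0.59, SE 0.16, adjusted p = 0.0153), fell. These counts of 1 of 13 in each direction are near the shares of all tested genes called higher (7.11%) and lower (10.2%) on that day. Chek1 was lost without WT replicate 3, and Atr without KO replicate 1 or WT replicate 2. At days 2 and 14, 0 of the 13 were called by the quasi-likelihood test of edgeR, with 0 and 4 at an unadjusted p under 0.05 and 0 and 1 called by DESeq2's Wald test. p53 protein was not measured here.

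Other p53 targets were called in both directions. Of 36 listed genes 34 were tested, and 6 rose and 2 fell at day 7, where 7.11% of all tested genes were called higher and 10.2% lower, with a median log2 fold change of 0.22. Those that rose were Plk3, a stress-induced polo-like kinase (20.5 ± 4.82 in KO and 5.94 ± 1.74 CPM for WT, mean ± SD, n = 3, log2 fold change 1.77, adjusted p = 0.000151, quasi-likelihood test of edgeR), Zfp385a (2.09, adjusted p = 0.0201), the stress cytokine Gdf15 (1.67, adjusted p = 0.0228), Tap1, Sesn2 and Rap2b. Zfp385a and Gdf15 had low levels, at 0.784 ± 0.285 and 1.68 ± 0.594 CPM in KO and 0.165 ± 0.176 and 0.531 ± 0.154 CPM in WT. Plk3 and Tap1 were called whichever day 7 library was left out, and they were the only 2 called without WT replicate 2. Without KO replicate 1 there were 3 called higher, Plk3, Tap1 and Sesn2. The 2 that fell were Xpc and Rrm2b, which act in DNA repair and nucleotide supply. No listed gene was called lower without KO replicate 1, KO replicate 2, WT replicate 1 or WT replicate 2, and 1 was without WT replicate 3, so neither call is firm. At day 14 Plk3 was again higher (1.51, SE 0.27, adjusted p = 0.00157) and Psrc1 was lower (-1.02, SE 0.22, adjusted p = 0.00606). Both were called whichever day 14 library was left out, and 1 of 34 in each direction is no more than the 3.23% of all tested genes called higher and 4.69% lower on that day. At day 2, 0 of the 34 were called by the quasi-likelihood test of edgeR or DESeq2's Wald test and 4 had an unadjusted p under 0.05, with a median log2 fold change of 0.14.

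Genes that p21 represses through the DREAM complex, mostly of mitosis, were measured beside Cdkn1a. Of the 18 listed and tested, at day 7, when Cdkn1a was called, 2 fell, the mitotic transcription factor Foxm1 (-0.48, SE 0.15, adjusted p = 0.0274) and the mitotic kinase Aurkb (-0.58, SE 0.18, adjusted p = 0.0292, quasi-likelihood test of edgeR), and Plk1 rose (0.43, SE 0.13, adjusted p = 0.0272). The 2 of 18 that fell compare with 10.2% of all tested genes called lower on that day, and each of these 3 calls was lost in at least 3 of the 6 fits that left out a day 7 library. At day 14, when no member was called, 9 of the 18 fell, against 4.69% of tested genes called lower, with a median log2 fold change of -0.52 over the list. The largest decreases were those of Ccnb2 (21.8 ± 2.42 in KO and 35.9 ± 8.35 CPM for WT, mean ± SD, n = 3), Aurkb (17.6 ± 3.25 and 29.0 ± 5.65 CPM) and Foxm1 (22.8 ± 3.64 and 36.0 ± 4.37 CPM). The day 14 count depended on single libraries. It was 0 without KO replicate 2, 2 without KO replicate 1, 3 without KO replicate 3 or WT replicate 2, 4 without WT replicate 1 and 8 without WT replicate 3, while the list median stayed between -0.57 and -0.38. The list median was -0.20 at day 7 and 0.01 at day 2, when 0 of the 18 were called by either test and 0 had an unadjusted p under 0.05. Enteroendocrine markers were also higher in KO at day 14 (778.4 to 932.6 CPM in KO, 251.0 to 333.4 CPM in WT, 10 of 10 called), and 1 of 7 Paneth markers was called lower (summed 5488 to 7266 CPM in KO, 9192 to 20390 CPM in WT). The enterocyte marker Sis was called higher (1.15, adjusted p = 0.0229), with a list median of 0.81 and summed levels of 11650 to 22130 CPM in KO and 4970 to 13090 CPM in WT, and the goblet marker Clca1 was called lower (-0.73, adjusted p = 0.0295, quasi-likelihood test of edgeR), with summed goblet levels of 10610 to 12550 CPM in KO and 12780 to 13100 CPM in WT. No enterocyte marker was called without KO replicate 2, KO replicate 3 or WT replicate 1, no goblet marker was called lower without KO replicate 1, KO replicate 3 or WT replicate 1, and no Paneth marker was called without any 1 of the KO libraries or WT replicate 1. Whether these cell types bear on the mitotic genes was not tested.

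**Figure D5:**
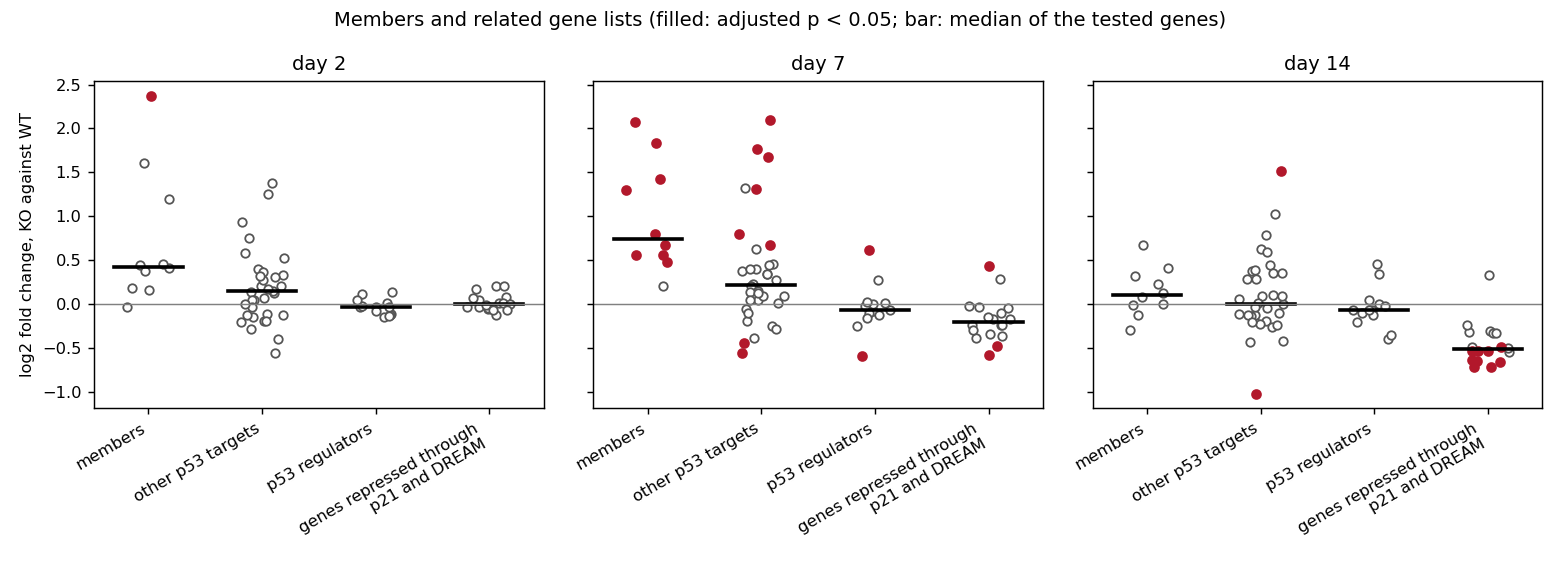
Log2 fold change of KO against WT (y axis) at each day for the 10 members, 34 other p53 targets, 13 p53 regulators and 18 genes repressed through p21 and DREAM; points are genes, filled where the adjusted p is under 0.05, and bars are medians. The members' median is highest at day 7 (0.74), and that of the genes repressed through p21 and DREAM is lowest at day 14 (-0.52).

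The genes with a pattern most like the members' mean were found by the root mean square difference of z scores of log2 CPM over the 18 libraries, among 21339 other tested genes. They included S100a11 (0.448 SD), Gsn (0.469), Ddit4l (0.550) and Susd1 (0.554), and the day 7 log2 fold changes of these genes were 0.97, 0.69, 2.69 and 1.52. S100a11 encodes a calcium-binding protein and Gsn the actin-severing protein gelsolin. Within the 10, Phlda3 and Eda2r were each other's closest match of all 21348 other tested genes (0.494 SD), and Plk2 was the closest gene to Mdm2 (0.415 SD). The closest member ranked 2, 3 and 5 for Plk2, Zmat3 and Bax, but only 128, 340 and 509 for Bbc3, Ccng1 and Cdkn1a. Trp53inp1 was the least like the others, since its closest member, Eda2r, ranked only 2715 in closeness to it. The libraries are shared by all of these values, which are given as a description.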

How the data were processed

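RNA-Seq was analysed from small intestinal crypts of 3 KO and 3 WT mice at each of days 2, 7 and 14, 18 libraries in all. The authors deposited raw counts per gene, made from 100-base paired-end reads of ribosomal RNA-depleted total RNA with STAR 2.7.3 and featureCounts 1.6.4 on mm10; its header gives GENCODE mouse release 23, the methods a later one. Strand was not used, and fragments over several genes were counted for each. Total counts of 12844642 to 31493484 per library were reached, and the low counts of Phlda3 and Eda2r add counting error to the spread between 3 mice.

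The 20 genes that the study removed for differing between the sexes were left out. Genes were filtered with filterByExpr, normalized by TMM and fitted in 1 model of all 6 groups with edgeR 4.0.16 (limma 3.58.1, R 4.3.3), with P values of the quasi-likelihood test adjusted over 21349 genes by the Benjamini-Hochberg method, a threshold of 0.05 and 12 comparisons. The same fit was also run on simulated counts, made with the means and spread fitted to the real data. DESeq2 1.42.0 was an alternative, as were other filters and size factors, the replicate number as a block, models of only the groups compared, and each library left out. Log2 CPM used a prior count of 2. Figures and tables were made with Python 3.11.15, pandas 2.3.3 and matplotlib 3.10.9.

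The labels give no sign that replicate numbers pair KO and WT mice. Deviations from the group mean of same-numbered KO and WT libraries correlated at 0.048 to 0.381 on day 2, -0.159 to 0.206 on day 7 and 0.159 to 0.227 on day 14, so every pair exceeded 0.1 on day 14 only.

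Named genes are the 10 members, Prmt1, Trp53, Mdm4, from each p53-related list the 3 called genes with the largest change and no overlap of libraries on each day, and the 5 genes closest in pattern. Other called genes of short lists were named after their values were seen. The members and the lists were chosen with earlier results of these data known. Cell type lists held crypt, enterocyte, enteroendocrine, Paneth, goblet, immune and stromal markers. A gene among those closest in pattern to the members is not reported here.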

Additional observations from a re-analysis of the deposited data

Results flagged for a closer look

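Ccng1 was the only member for which all 3 KO libraries of a day lay on one side of the WT mean and all 3 of another day on the opposite side. Relative to the WT mean of the day, its log2 CPM in the KO libraries was 0.04, 0.55 and 0.65 at day 2, 0.20, 0.78 and 1.06 at day 7, and -0.47, -0.45 and -0.03 at day 14. The KO effect at day 14 minus that at day 7 was -0.97 (unadjusted p = 0.00689, adjusted p = 0.999, quasi-likelihood test of edgeR), and at day 14 minus day 2 it was -0.74 (unadjusted p = 0.0323, adjusted p = 0.355). Neither difference passed the adjusted threshold.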

How the results depend on the processing

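Counts of called members changed with the processing mainly at day 2 and between the KO groups. For KO against WT at day 2, with 1 call, the count was 2 with DESeq2's Wald test, which called 12 of 21349 genes higher. It was 3 with no filter on low counts (Phlda3, Plk2 and Eda2r), with 15 of 39046 genes called higher. The count was 0 with a mean count of at least 50, under which Phlda3 and Eda2r were not tested, with the replicate block and with only the groups compared. With a library left out it was 0 to 1, with 3 or 4 of all genes called higher. At day 7 the count was 7 to 9 over the other settings, 8 with the replicate block, and 6 to 9 with a library left out, and at day 14 it was 0 in every fit. All genes called higher at day 7 numbered 1234 to 1823 over the other settings and 832 to 2013 with a library left out. For the change of the KO effect from day 2 to day 7 it was 1 with DESeq2 (Cdkn1a, among 515 genes higher and 887 lower) and 0 to 1 with a library left out. For the change from day 2 to day 14 the main fit called no member, with 0.347% of tested genes called higher and 0.698% lower. With no filter on low counts the count was 1 (Phlda3, lower), among 170 genes higher and 263 lower of 39046. Between KO days 2 and 7 the count was 1 with only the groups compared (Cdkn1a, higher), among 1035 genes higher and 1268 lower of 19985. Between KO days 7 and 14 it was 4 with DESeq2 (66 genes lower and 156 higher), 4 with no filter (73 genes lower and 124 higher of 39046) and 0 to 3 with a library left out. Between KO days 2 and 14 it was 2 to 4, all lower, in fits that called 538 to 1409 genes lower. The replicate block lowered the day 7 count from 9 to 8 by losing Zmat3, removed the day 2 call of Phlda3 (adjusted p = 0.113) and changed no other call of a member. Members near 0 changed sign without being called. At day 14 Bax went from -0.01 to 0.00 (both uses of DESeq2's size factors), 0.01 (mean count of at least 50) and -0.09 to 0.10 with a library left out, Trp53inp1 went to 0.01 (DESeq2 and its size factors), 0.00 (mean count of at least 50 and the replicate block) and -0.17 to 0.26 with a library left out, and Eda2r ranged from -0.32 to 0.38 with a library left out. At day 2, with a library left out, Cdkn1a ranged from -0.06 (without WT replicate 2) to 0.46 and Trp53inp1 from -0.15 to 0.17 (without KO replicate 2). Each fit and comparison had its own median over the genes it tested, and these medians lay between -0.027 and 0.048 (log2). The lowest was that of KO day 14 against day 2 without KO day 2 replicate 1 (main fit -0.019). The highest was that of WT day 7 against day 2 with the 20 most abundant genes left out (main fit 0.014). The causes were not tested.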
